A study of Homo sapiens and Mus musculus with 20 samples.

Results

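The regions described here lie at 9 genes of polyamine metabolism, SAT1, SAT2, ODC1, AMD1, SRM, SMOX, PAOX, OAZ1 and AZIN1, in SW480 cells, an established human colorectal adenocarcinoma line. They are all merged peak regions within a gene body (GENCODE, GRCh38) or 10 kb to either side, and they number 95 of the 252173 regions found over 12 ATAC-seq peak lists. ATAC-seq marks open chromatin by the sites at which Tn5 transposase can insert sequencing adapters. In the NaPr experiment 3 libraries came from cells given 10 mM sodium propionate and 3 from untreated cells. In the NaBu experiment 3 libraries came from cells given 1 mM sodium butyrate and 3 from untreated cells. Treatment lasted 12 to 16 h and 50000 cells went into each reaction. Each experiment carried its own date label and its own untreated libraries, and the doses differed, so values for the compounds are given side by side and were not compared. No allele or transgene was stated for any group. The labels do not say that libraries came from separate cultures, so p-values measure the spread between libraries only. The genes were chosen by measured values, since a region beyond the end of SAT1 gained a peak with both compounds. The SAT1 regions are therefore described without a test.

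Putrescine, spermidine and spermine are small, positively charged molecules that bind nucleic acids and are needed for growth and translation. ODC1 makes putrescine from ornithine, AMD1 makes the aminopropyl donor, and SRM joins the donor to putrescine to give spermidine. SAT1 acetylates spermidine and spermine, PAOX oxidises the acetylated forms, and SMOX oxidises spermine directly. OAZ1 encodes antizyme, which binds ODC1 and sends it to the proteasome, and AZIN1 encodes an inhibitor of antizyme. SAT2 is a relative of SAT1 in sequence. Gut bacteria make propionate and butyrate, both short-chain fatty acids, from dietary fiber.

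A region was scored in each library by its percentile rank. This is its place, by its strongest peak's −log10 p, among the 167303 regions with a peak in at least 2 of the 12 libraries, where 100 is the strongest. A region with no listed peak has rank 0. Of the 95 regions, 74 were ranked and 21 had a peak in 1 library only, while 23 had a peak in all 12. Peak intervals numbered 112145 to 144398 per NaPr list and 108442 to 128955 per NaBu list. The last peak number was 300000 in every list, so the lists were of limited length. The weakest listed peak had a −log10 p of 3.37 to 6.53 in the NaPr lists and 7.25 to 9.38 in the NaBu lists. The lowest rank of a listed peak was between 35.8 and 44.6. The mean number of tags expected at any point of the genome, a measure of depth, was 0.936 to 2.35 in the NaPr libraries and 2.11 to 3.03 in the NaBu libraries. The starts of 6 of 7 epithelial and colon marker genes were open in all 12 libraries, and CDX1 had no peak in any. Among 9 markers of other cell types, VIM was open in all 12, at ranks of 85.3 to 92.8, and the other 8 had no peak in any.

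The largest difference at these genes lay just beyond SAT1, which occupies chrX:23783173-23786210 on the plus strand. The region chrX:23786389-23788014 begins 179 bp and ends 1804 bp beyond the gene end, and no annotated gene overlaps it. None of the 6 untreated libraries listed a peak there and all 6 treated libraries did. With NaPr the ranks were 84.8, 80.8 and 88.5 (mean 84.7 ± 3.88, SD, n = 3), and with NaBu they were 78.1, 80.9 and 81.0 (80.0 ± 1.65). Such a gain, in all 3 treated libraries and in none of the untreated, was found at 2.95% of all regions tested with NaPr and at 6.41% with NaBu. Both held for 506 regions, which is 0.302% of those ranked. By size of change the region stood at place 1 of 124067 with NaPr and at place 42 of 123730 with NaBu. Ranked by fold enrichment instead of p, the mean gain was 57.3 points with NaPr and 40.4 with NaBu. These values chose the genes, so they carry no test.

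**Figure D1:**
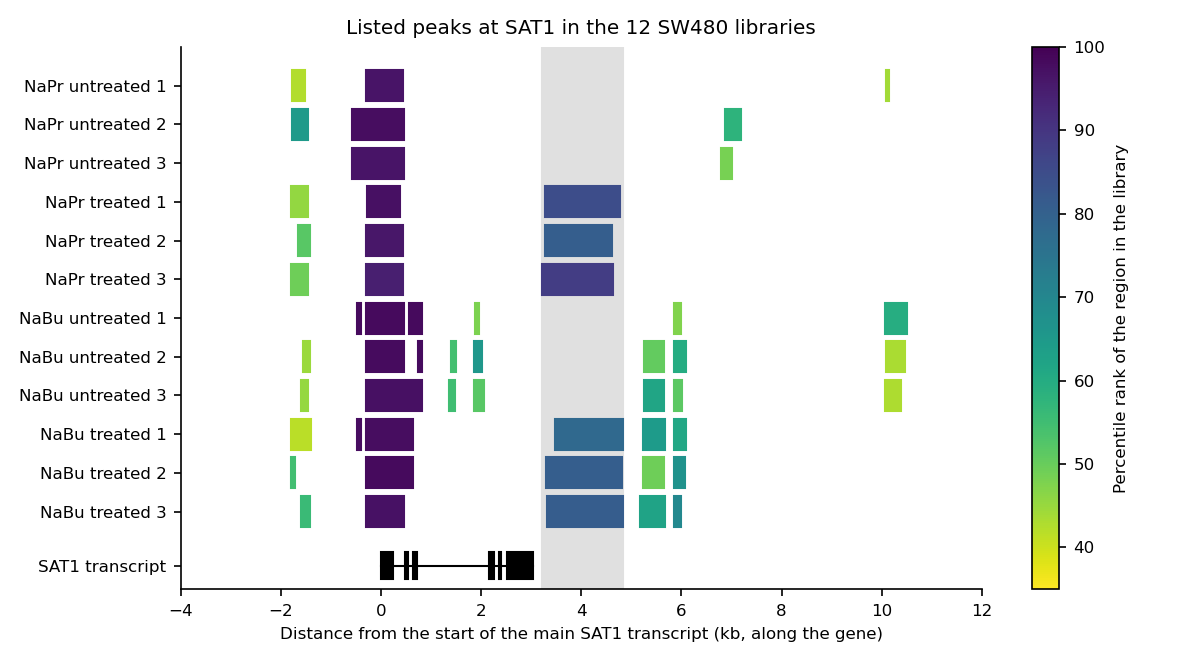
Listed peaks at SAT1 in the 12 SW480 libraries, one row per library, against the distance in kb from the start of the main SAT1 transcript, with colour giving the percentile rank of the region. The grey band marks the region beyond the gene end, filled in the 6 treated libraries only, while the start is filled in all 12.

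In each treated library the region was a single interval, of 1335 to 1520 bp, with 8 to 11 summits. The strongest summits of the NaPr libraries lay 511, 639 and 948 bp beyond the gene end, a span of 437 bp. Those of the NaBu libraries lay at 1242, 1238 and 1244 bp, a span of 6 bp. The recovered number of tags at the strongest summit was 78, 77 and 182 with NaPr and 184, 198 and 208 with NaBu. The enrichment over local background was 4.63, 4.29 and 5.76 times with NaPr and 3.56, 4.04 and 3.84 times with NaBu. Divided by the genome background of its library, the tags came to 82.2 ± 21.2 (SD, n = 3) with NaPr and 80.7 ± 1.84 with NaBu. In the untreated libraries, at the highest local background of any listed SAT1 region (the start with NaPr, an intron with NaBu), a peak would have needed 17, 30 and 33 tags to be listed in the NaPr experiment and 76, 54 and 63 in the NaBu experiment. That is 12.7 to 18.2 times the genome background in the former and 25.1 to 25.6 times in the latter. A lower number of tags in untreated cells was not detectable from these lists. In bulk samples a lower share of cells with open chromatin and less opening per cell cannot be told apart.

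Sequences are given for some of the regions that carry a result. Letters are in lower case, and capitals mark a match to 1 of 6 motifs, searched on both strands: TGANTCA (AP-1), TGACGTCA (cAMP response element), CACGTG (E-box), GGGCGG (GC box), TGACNNNGC (antioxidant response element core) and TATGACTAA (polyamine-responsive element). Matches of TGACNNNGC can share letters with those of TGANTCA and TATGACTAA. Over the whole region beyond SAT1 the GC content was 48.1%, and of the 6 motifs only TGACNNNGC occurred. It had 2 matches over 1626 bp, starting 606 and 1211 bp beyond the gene end. None lay in the 200 bp window around the highest-ranked summit, that of NaPr-treated library 3 at 948 bp. Windows of this size around the strongest summits of NaPr-treated library 2 (639 bp) and the NaBu libraries (1238 to 1244 bp) hold a match. TGACNNNGC is present in 10.8% of such windows of all ranked regions.

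Much of the region beyond SAT1 is repeated elsewhere in the genome. Of its 1596 words of 31 bases, 800 (50.1%) occur once in hg38 on either strand, and 437 (27.4%) occur more than 100 times. In the 200 bp window around the strongest summit, 71.2%, 39.4% and 94.7% of the words were unique for the 3 NaPr libraries. For the 3 NaBu libraries the shares were 19.4%, 21.8% and 18.2%. By the same count, 100% of the words were unique at the SAT1 start and at the regions of SMOX, ODC1 and SRM whose sequences are shown here. How reads that align to several places were treated is not given in the sources used here, so how many of its tags came from this copy is not known, and the part of the repeated sequence in the gained peaks was not tested. This count was chosen after the data were seen.

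The SAT1 start was among the most open regions in every library. The region chrX:23782596-23783992 covers the transcript start, and 2 long noncoding RNA genes, ENSG00000233785 and ENSG00000288706, also start in it. Its ranks were 96.6, 97.9 and 96.5 in untreated and 97.4, 96.1 and 94.6 in NaPr-treated libraries (means 97.0 ± 0.765 and 96.1 ± 1.41). In the NaBu experiment they were 98.3, 98.1 and 97.4 in untreated and 97.9, 98.2 and 97.1 in treated libraries (98.0 ± 0.500 and 97.8 ± 0.563). Treated and untreated ranks overlapped in both experiments. The promoter as RefSeq gives it (GRCh38.p14, 300 bases over the start, plus strand) is shown because it had a strong peak in all 12 libraries.
SAT1 promoter, chrX:23782923-23783222: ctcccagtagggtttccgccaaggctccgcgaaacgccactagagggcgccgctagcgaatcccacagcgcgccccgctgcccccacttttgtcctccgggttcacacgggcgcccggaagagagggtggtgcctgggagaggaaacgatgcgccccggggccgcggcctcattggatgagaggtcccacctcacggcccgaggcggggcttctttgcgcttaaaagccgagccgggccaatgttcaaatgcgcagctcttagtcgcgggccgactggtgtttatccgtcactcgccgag
It holds no match to any of the 6 motifs.

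The tags behind these ranks had higher means in treated libraries once depth was taken into account, and the background around them more so. At the SAT1 start 107, 208 and 222 tags were recovered from untreated and 150, 160 and 244 from NaPr-treated libraries. In the NaBu experiment the numbers were 518, 330 and 362 in untreated and 443, 455 and 423 in treated libraries. As multiples of the genome background, the means were 104 ± 13.9 and 141 ± 17.3 with NaPr and 158 ± 12.8 and 181 ± 11.5 with NaBu. The local background, which MACS2 takes from the surroundings of the summit, moved further. It was 7.48, 5.20 and 6.82 times the genome background in untreated and 16.5, 13.4 and 17.1 times in NaPr-treated libraries. With NaBu it was 10.6, 10.3 and 10.4 times in untreated and 20.3, 18.3 and 19.4 times in treated libraries. The groups did not overlap in either experiment. The strongest summit of the region beyond SAT1 lies 3985 bp from the start, so its tags may be part of this local background. The rise there cannot be told apart from the gain that chose the genes. The deposited fold enrichment at the start, which divides by that local background, was 14.8 ± 1.18 in untreated and 8.65 ± 0.687 in NaPr-treated libraries, and 14.5 ± 1.07 and 9.21 ± 0.685 with NaBu.

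A second scale was the median number of tags over the regions with a peak in all 6 libraries of an experiment, 65178 with NaPr and 72559 with NaBu. On it the local background was 0.246 ± 0.00721 in untreated and 0.499 ± 0.0371 in NaPr-treated libraries, and 0.361 ± 0.00405 and 0.669 ± 0.0376 with NaBu. The tags at the start were 3.82 to 4.24 times the median in untreated and 4.07 to 5.17 times in NaPr-treated libraries, which overlapped. With NaBu they were 5.03 to 5.89 times in untreated and 5.96 to 6.51 times in treated libraries, which did not. On both scales the surroundings of the SAT1 start had more tags in every treated than in any untreated library. The start itself had a higher mean. These surroundings may include the gained region beyond SAT1.

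**Figure D2:**
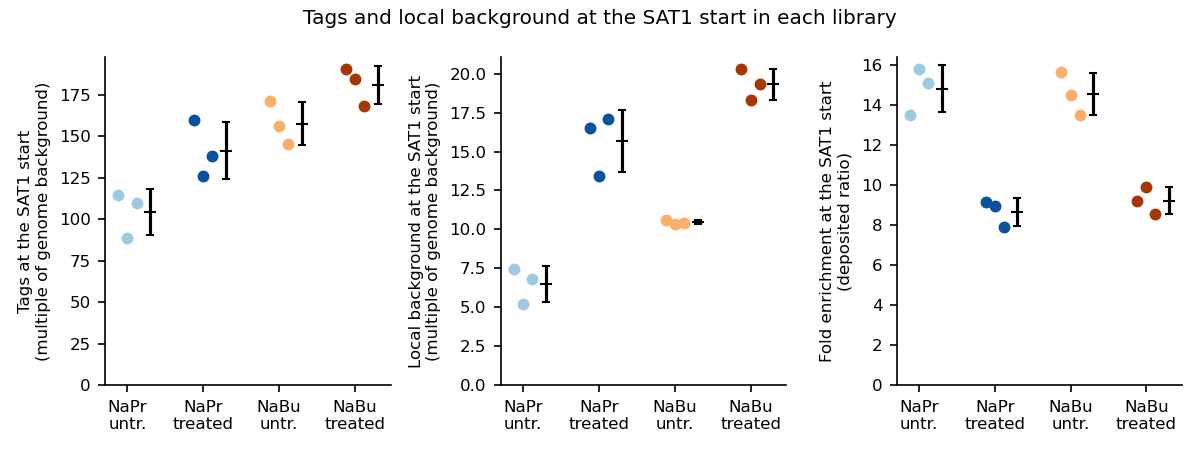
Tags at the SAT1 start, local background there (both as multiples of the genome background of the library) and deposited fold enrichment there, with 1 point per library and a bar for the mean ± SD of 3 libraries. The local background of the treated libraries lies at 13.4 to 20.3, above all untreated ones at 5.20 to 10.6, and fold enrichment is lower in all treated libraries. The local background may include tags of the region beyond SAT1.

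The upstream region chrX:23781379-23781775, with its strongest summit 1593 bp before the SAT1 start, was weak. Its ranks were 42.4, 64.8 and 0 in untreated and 45.6, 51.9 and 49.3 in NaPr-treated libraries. With NaBu they were 0, 44.8 and 45.3 in untreated and 41.6, 54.7 and 56.0 in treated libraries. It overlaps the noncoding gene ENSG00000233785, and treated and untreated ranks overlapped in both experiments. It is shown for its match to the polyamine-responsive element, known from the SAT1 promoter as a binding site for NRF2.
SAT1 upstream region, chrX:23781481-23781680, plus strand of hg38: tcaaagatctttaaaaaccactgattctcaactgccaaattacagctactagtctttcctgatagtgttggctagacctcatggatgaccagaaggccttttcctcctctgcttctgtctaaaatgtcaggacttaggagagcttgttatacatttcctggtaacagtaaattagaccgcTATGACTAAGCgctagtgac
The capitals mark TATGACTAA and an overlapping match of TGACNNNGC. TATGACTAA is present in 0.243% of the windows of all ranked regions and in 1 of the 74 windows at the 9 genes (1.35%), and this is that 1.

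The other SAT1 regions were weak, with ranks of up to 69.6. Both intronic regions with a rank had peaks in untreated NaBu libraries only. The one at chrX:23784522-23784663 ranked 0, 54.5 and 54.9 there, and the one at chrX:23785019-23785229 ranked 47.7, 65.6 and 51.8. Further downstream, chrX:23788345-23788847 ranked 0, 50.7 and 61.7 in untreated and 64.5, 49.3 and 62.3 in NaBu-treated libraries, and had no peak in the NaPr experiment. Its neighbour chrX:23789023-23789260 ranked 47.4, 60.0 and 51.5 in untreated and 61.2, 66.8 and 69.6 in NaBu-treated libraries, which did not overlap. The region chrX:23789968-23790359 ranked 0, 58.1 and 48.4 in untreated libraries of the NaPr experiment and had no peak elsewhere. The last, chrX:23793240-23793688, ranked 59.5, 43.3 and 42.9 in untreated NaBu libraries and had a weak peak in untreated NaPr library 1, but none in treated libraries. One further intronic region had a peak in 1 library and was not ranked. The intronic peaks of the untreated NaBu libraries held 65 to 82 tags. In NaBu-treated libraries the highest local background of any listed SAT1 region was that of the region beyond SAT1. At that background at least 96 tags were needed in each library for a peak to be listed. The local background at the introns of these libraries is not known, and whether the same numbers would have been listed was not tested.

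The 5 regions whose ranks followed the region beyond SAT1 most closely over the 12 libraries were likewise listed in the 6 treated libraries and absent from the 6 untreated lists. The closest, chr15:65300428-65300903, lies 47 bp from PARP16 (Pearson r = 0.9996). Its ranks were 81.7, 78.7 and 81.7 with NaPr and 76.2, 75.8 and 76.7 with NaBu. The others lie 11272 bp from VWA5B1 (chr1:20279322-20279885, r = 0.999), 1208 bp from PDLIM7 (chr5:177481636-177482737, r = 0.998), within MEIOSIN (chr19:45737060-45737656, r = 0.998) and 1018 bp from PPP1R12C (chr19:55118471-55118841, r = 0.998). In all, 547 of 167302 other regions had r above 0.95. The correlations describe 12 libraries that share depth and treatment within groups, and a pattern of listed and unlisted peaks alone gives a high r.

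Outside SAT1, the 8 genes had called regions in both directions. By rank with NaBu, their shares were near those of all regions, but on tags the share called lower was larger, as given below. Changes were tested with limma on the ranks, each experiment alone, over every region with a peak in at least 2 of its 6 libraries, with Benjamini-Hochberg adjustment over all of them and a threshold of 0.05. Of 49 regions tested with NaPr, 1 rose (2.04%) and 5 fell (10.2%), against 5.16% higher and 4.1% lower among all 124067 regions. The median change of rank was −1.29 points at the 8 genes and 0.0389 over all regions. Of 52 regions tested with NaBu, 7 rose (13.5%) and 10 fell (19.2%), against 17.1% and 14.5% of 123730, with medians of −2.50 and 0.560. At an unadjusted p under 0.05 there were 14 of 49 with NaPr (28.6%, and 23.2% of all regions) and 27 of 52 with NaBu (51.9%, and 43.0% of all regions). Rose and fell mean here a change of rank within the library, not of the number of tags. Without NaPr untreated library 2 no region was called at these genes or among all 117160 tested, where 25216 had an unadjusted p under 0.05, while the changes stayed about as large (5.85 and −11.6 points at the SMOX regions below and −70.8 in OAZ1, each at a limma adjusted p of 0.0517). Leaving out the other NaPr libraries in turn gave up to 3 higher, of 48, against 7.27% of all regions. Up to 6 were lower, of 45, against 4.68%.

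The split between higher and lower moved with the scale. On recovered tags in regions with a peak in all 6 libraries, 28 regions were tested at the 8 genes with each compound. NaBu gave 6 higher (21.4%) and 18 lower (64.3%) there under both scalings. All regions then gave 24% higher and 28.8% lower when tags were divided by genome background, and 24.4% and 28.6% when divided by the median. These shares are of all regions, without matching for place or GC content. NaPr gave 1 higher and 1 lower at the 8 genes with the first scaling (3.57% each). The second gave 2 higher (7.14%) and 14 lower (50%). All regions gave 13.5% higher and 1.1% lower with the first and 12.2% and 19.9% with the second. The median of all regions was 0.21 log2 higher with NaPr under the first scaling and −0.05 under the second, so NaPr changes in tags below are given on both.

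**Figure D3:**
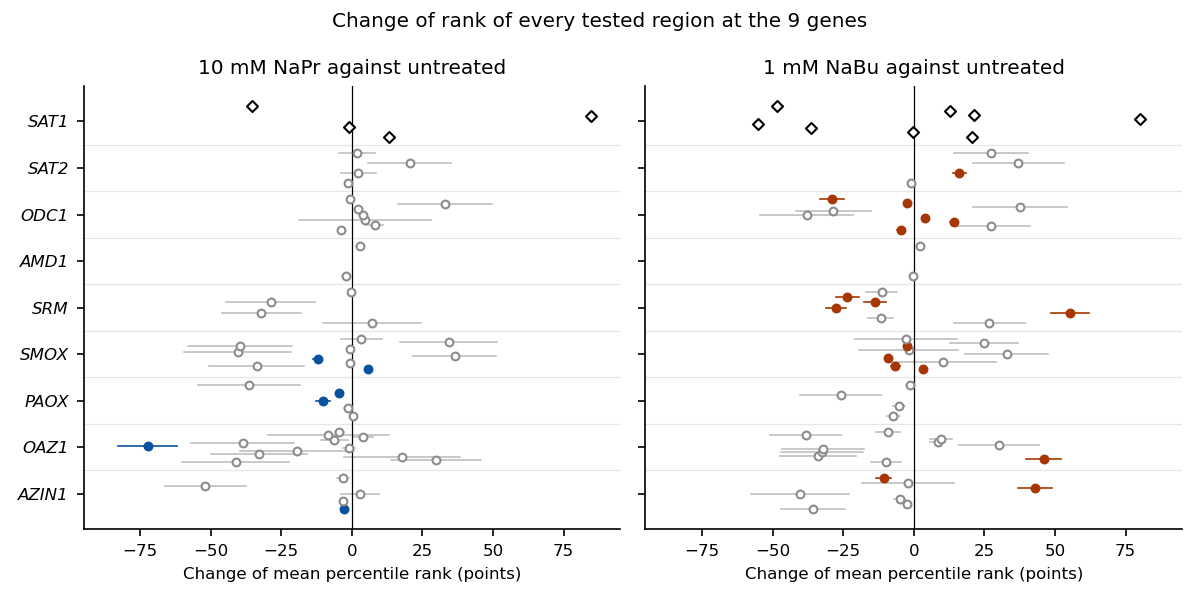
Change of mean percentile rank (treated minus untreated, in points) for every tested region at the 9 genes, with NaPr on the left and NaBu on the right. Lines give ± 1 SE, filled circles are called regions at the 8 genes, and diamonds are SAT1 regions, which were not tested; the SAT1 diamonds at 84.7 and 80.0 lie furthest to the right.

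All 9 transcript starts had a peak in at least 11 of the 12 libraries, and their ranks spread widely. In all 4 groups the lowest mean ranks were those of PAOX and OAZ1. SAT1 had the highest mean in both NaBu groups, while in untreated NaPr libraries the starts of SAT1, SAT2, ODC1 and SRM overlapped between 96.2 and 98.6. With NaPr 1 of the 8 tested starts was lower by rank, that of PAOX, and none was higher, against 4.1% lower and 5.16% higher of all regions. With NaBu 3 were lower, those of ODC1, SRM and SMOX, and none was higher, against 14.5% and 17.1%. On tags the NaBu starts of SAT2, AMD1 and AZIN1 passed as lower too, so every start tested on tags with NaBu did. Of all regions, 28.8% were lower on the background scale and 28.6% on the median scale. The share among the starts of other genes is not given here, and whether starts in general moved alike was not tested.

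**Figure D4:**
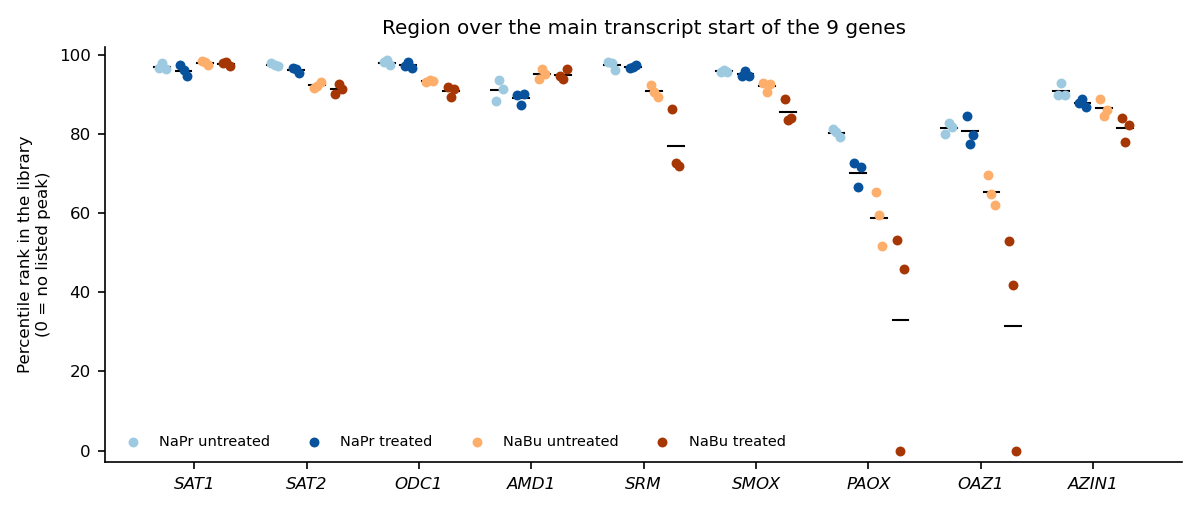
Percentile rank of the region over the main transcript start of each of the 9 genes, with 1 point per library, a bar at the mean of 3 libraries and colours for the 4 groups; 0 means no listed peak. SAT1 points lie between 94.6 and 98.3 in all groups, and the SRM points of the NaBu-treated group spread from 71.8 to 86.4, below its untreated group.

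Among the enzymes of synthesis, ODC1, the rate-limiting step, had 5 called regions with NaBu and none with NaPr. Its start region, chr2:10447455-10450628, ranked 98.1, 98.6 and 97.4 in untreated and 97.2, 98.2 and 96.8 in NaPr-treated libraries (change −0.64 points, limma adjusted p = 0.48). With NaBu it went from 93.1, 93.6 and 93.4 to 91.9, 89.3 and 91.5 (93.4 ± 0.234 and 90.9 ± 1.37, change −2.46, SE 0.741, adjusted p = 0.0495). All 3 treated libraries lay below all untreated ones. That call was lost without any 1 untreated library or without treated library 3 (adjusted p = 0.0813 to 0.128). Of 18 alternative settings, described at the end, 8 lost it (adjusted p up to 0.333). On tags the start changed by −0.49 log2 with NaBu on both scales.

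Downstream of ODC1 a pair of neighbouring regions rose. At chr2:10434737-10434853, 5174 bp beyond the gene end by its summit, NaBu took the ranks from 75.9, 76.0 and 72.7 to 88.0, 89.7 and 89.5 (74.9 ± 1.91 and 89.1 ± 0.938, change 14.2, SE 1.30, limma adjusted p = 0.000897). NaPr gave 84.9, 86.1 and 83.9 in untreated and 90.2, 86.2 and 90.5 in treated libraries (change 3.98, SE 1.40, adjusted p = 0.14). The groups did not overlap with either compound. The next region, chr2:10434945-10435219, went from 87.9, 89.7 and 89.9 to 91.3, 93.5 and 94.4 with NaBu (change 3.93, SE 0.977, adjusted p = 0.0261). That call was lost without any 1 untreated library or without treated library 2 or 3 (adjusted p = 0.0512 to 0.0884). It was lost in 7 of 18 alternative settings in all (adjusted p up to 0.968), among them ranks by fold enrichment. The 200 bp around the strongest summit of the first region are shown on the minus strand, that of the gene, as the called gain at ODC1 with the lowest adjusted p.
ODC1 downstream region, chr2:10434695-10434894: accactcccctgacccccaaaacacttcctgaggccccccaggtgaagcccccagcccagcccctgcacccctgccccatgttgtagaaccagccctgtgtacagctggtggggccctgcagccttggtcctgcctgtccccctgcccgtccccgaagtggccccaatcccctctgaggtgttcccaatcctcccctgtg
It holds none of the 6 motifs and its GC content is 66.5%.

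Both remaining called regions of ODC1 fell with NaBu. The distal upstream region chr2:10457969-10458889, at 9642 bp from the gene, went from 74.7, 78.4 and 76.2 to 40.7, 46.5 and 55.4 (change −28.9, SE 4.35, limma adjusted p = 0.00354) and had no peak in any NaPr library. Its treated and untreated ranks were far apart. At chr2:10431813-10433297, downstream, ranks went from 82.4, 80.0 and 81.8 to 77.6, 76.1 and 76.6 (change −4.65, SE 1.23, adjusted p = 0.0327). Here the call was lost without untreated library 1 or 3 or treated library 2 or 3 (adjusted p = 0.0556 to 0.0795). It was also lost on tags, where the change was −0.10 and −0.09 log2 (adjusted p = 0.445 and 0.462 on the background and median scales). With NaPr the same region ranked 93.3, 92.9 and 91.6 and then 87.0, 88.7 and 90.5 (change −3.85, SE 1.03, adjusted p = 0.0622).

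AMD1 had no called region. Its start, chr6:110873988-110875049, ranked 88.4, 93.8 and 91.3 in untreated and 89.9, 87.5 and 90.0 in NaPr-treated libraries (change −2.03, SE 1.45, limma adjusted p = 0.392). With NaBu it ranked 93.9, 96.3 and 95.1 and then 94.8, 93.9 and 96.5 (change −0.08, adjusted p = 0.957). The groups overlapped in both. An intronic region 1618 bp inside the gene changed by 2.84 points with NaPr and 2.05 with NaBu (adjusted p = 0.247 and 0.198). On tags the start was −0.32 log2 with NaBu (adjusted p = 0.00773 and 0.00985 on the background and median scales), a call that ranks did not make.

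SRM, spermidine synthase, had the largest fall in rank at a start among the 3 enzymes of synthesis, with NaBu. Its start region, chr1:11059482-11060521, ranked 92.3, 90.6 and 89.4 in untreated and 86.4, 72.7 and 71.8 in NaBu-treated libraries (90.8 ± 1.48 and 77.0 ± 8.19, change −13.8, SE 3.94, limma adjusted p = 0.0416). No treated library reached an untreated one, and treated libraries 2 and 3 lay lowest. The call was lost without any 1 untreated library or without treated library 2 or 3 (adjusted p = 0.0959 to 0.132), while tags gave −1.10 log2 on both scales. With NaPr the start ranked 98.3, 97.9 and 96.2 and then 96.7, 96.9 and 97.5 (change −0.45, SE 0.611, adjusted p = 0.679).

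The flanks of the SRM start fell with it in the NaBu experiment. In the coding exon beside it, chr1:11059026-11059380, ranks went from 70.1, 70.6 and 75.9 to 48.9, 42.3 and 43.0 (change −27.4, SE 3.61, limma adjusted p = 0.00218). On the upstream side, chr1:11060613-11060769, they went from 78.3, 75.6 and 77.7 to 62.0, 51.3 and 48.1 (change −23.5, SE 4.10, adjusted p = 0.0066). Treated and untreated ranks did not overlap at either. An intronic region nearer the gene end, chr1:11055804-11056069, moved the other way, from no peak in untreated libraries to 56.5, 45.3 and 63.9 (change 55.2, SE 6.76, adjusted p = 0.00178). The SRM promoter is shown for its GC boxes, from RefSeq (GRCh38.p14, minus strand).
SRM promoter, chr1:11059969-11060268: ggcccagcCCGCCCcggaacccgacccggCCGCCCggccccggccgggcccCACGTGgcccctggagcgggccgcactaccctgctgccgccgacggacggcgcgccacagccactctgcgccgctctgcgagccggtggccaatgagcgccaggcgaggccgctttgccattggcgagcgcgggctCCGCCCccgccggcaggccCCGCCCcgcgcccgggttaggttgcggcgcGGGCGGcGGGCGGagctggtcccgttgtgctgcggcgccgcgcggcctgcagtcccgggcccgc
Capitals mark 6 matches of GGGCGG and 1 of CACGTG. Of 35116 promoters of this length, 45.0% hold GGGCGG and 7.26% hold CACGTG. RefSeq promoters were found for SRM, ODC1, AMD1, SAT2, OAZ1 and SAT1.

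Among the enzymes of breakdown, SMOX had the only regions called in the same direction with both compounds, 1 higher and 1 lower. Ranked by fold enrichment instead of p, neither region was called with both. The region that rose, chr20:4134767-4137123, lies 12995 bp before the main SMOX start, inside a longer SMOX transcript. With NaPr its ranks went from 90.2, 91.2 and 91.0 to 95.7, 96.3 and 97.3 (90.8 ± 0.561 and 96.5 ± 0.804, change 5.64, SE 0.632, limma adjusted p = 0.0154). With NaBu they went from 95.3, 96.6 and 93.8 to 98.4, 98.7 and 98.5 (95.2 ± 1.40 and 98.6 ± 0.165, change 3.34, SE 0.697, adjusted p = 0.0136). All treated libraries lay above all untreated ones. On tags the change was 0.84 and 0.58 log2 with NaPr on the background and median scales and 0.45 with NaBu on both. The NaPr call was lost without untreated library 2 (adjusted p = 0.0517) and the NaBu call without untreated library 1 or treated library 2 or 3 (0.0501 to 0.0564). Without the variance trend of limma both calls were lost. The NaPr call was also lost with the replicate number as a block, and the NaBu call on fold enrichment (adjusted p up to 0.110 for each compound).

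The region that fell, chr20:4161129-4162728, lies in an intron 13272 bp after the main start. With NaPr its ranks went from 93.1, 94.5 and 93.2 to 83.8, 77.8 and 83.0 (93.6 ± 0.760 and 81.5 ± 3.27, change −12.1, SE 1.63, limma adjusted p = 0.0194). With NaBu they went from 94.5, 95.5 and 96.5 to 88.8, 87.0 and 83.9 (95.5 ± 0.965 and 86.6 ± 2.45, change −8.95, SE 1.29, adjusted p = 0.00303). Again no treated library reached an untreated one. On tags the change was −0.93 and −1.19 log2 with NaPr on the background and median scales and −1.07 with NaBu on both. The NaPr call was lost without untreated library 2 (adjusted p = 0.0517), with the replicate number as a block and on fold enrichment (adjusted p up to 0.104). Both regions are shown around their strongest summits, on the plus strand of hg38, as the pair that moved in opposite directions within 1 gene.
SMOX region that rose, chr20:4135734-4135933: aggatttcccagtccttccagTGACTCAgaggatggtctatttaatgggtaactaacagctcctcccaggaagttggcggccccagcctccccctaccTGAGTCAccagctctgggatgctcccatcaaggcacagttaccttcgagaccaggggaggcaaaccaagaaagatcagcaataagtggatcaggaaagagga
SMOX region that fell, chr20:4162001-4162200: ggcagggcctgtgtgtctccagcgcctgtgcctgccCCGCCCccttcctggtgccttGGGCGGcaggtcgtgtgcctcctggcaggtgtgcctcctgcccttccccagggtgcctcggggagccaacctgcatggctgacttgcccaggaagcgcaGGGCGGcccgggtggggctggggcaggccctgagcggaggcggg
The first holds 2 matches of TGANTCA and has a GC content of 53%. The second holds 3 matches of GGGCGG and has 74% GC. TGANTCA is present in 18.8% of the windows of all ranked regions and in 4 of the 74 at the 9 genes (5.41%), and GGGCGG in 14.1% and in 22 of 74 (29.7%). The median GC content was 51.5% over all windows and 58.75% at the 9 genes.

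**Figure D5:**
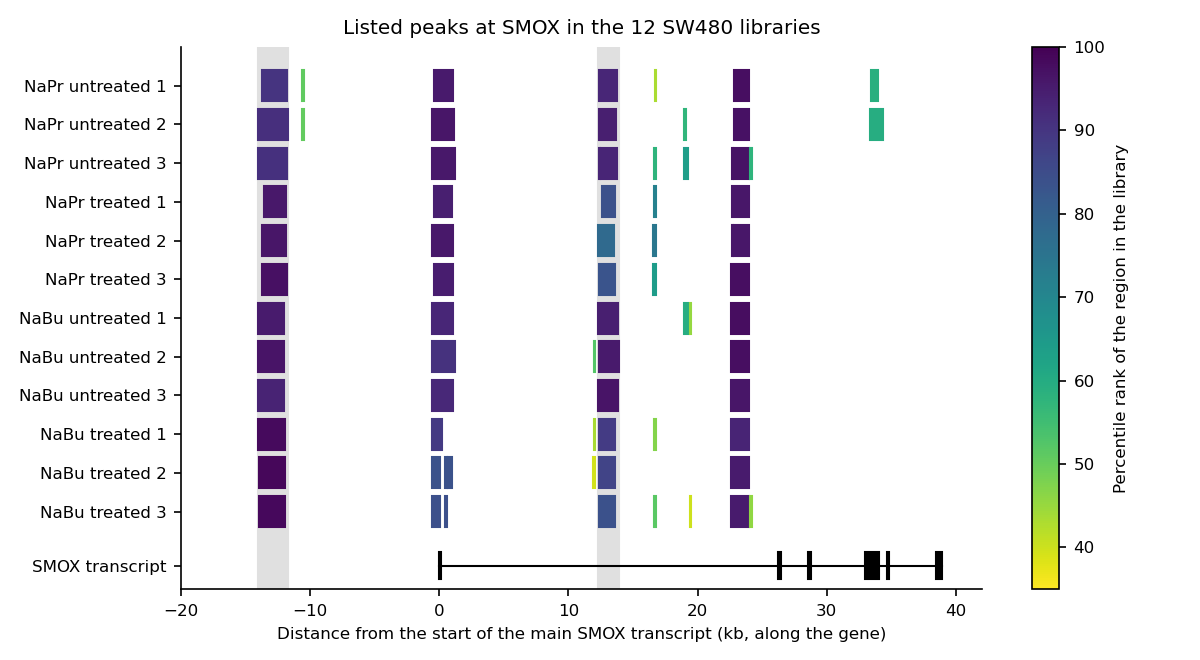
Listed peaks at SMOX in the 12 SW480 libraries, one row per library, against the distance in kb from the start of the main SMOX transcript, with colour giving the percentile rank. The grey bands mark the region before the start that rose (90.2 to 96.6 in untreated, 95.7 to 98.7 in treated libraries) and the intronic region that fell (93.1 to 96.5 and 77.8 to 88.8).

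The main SMOX start, chr20:4148237-4150082, fell with NaBu, from 93.0, 90.7 and 92.7 to 89.0, 83.5 and 84.2 (92.2 ± 1.26 and 85.5 ± 2.99, change −6.60, SE 1.59, limma adjusted p = 0.0230). That call was lost without untreated library 1 or 3 or treated library 2 or 3 (adjusted p = 0.0754 to 0.0838). With NaPr the start ranked 95.6, 96.3 and 95.8 and then 94.7, 95.9 and 94.7 (change −0.79, SE 0.531, adjusted p = 0.357). In untreated NaBu libraries the start was already below 3 other SMOX regions, with a mean of 92.2 against 97.2 in the intronic region described next, 95.5 in the intronic region that fell with both compounds and 95.2 before the start. A further intronic region, chr20:4171417-4172792, went from 97.7, 97.5 and 96.4 to 93.5, 95.2 and 95.2 with NaBu (change −2.55, SE 0.622, adjusted p = 0.0244). Its call was lost without untreated library 1 or 2 (0.0817 to 0.0847). It was also lost with the replicate number as a block, without the variance trend and on fold enrichment (adjusted p up to 0.872). With NaPr the region changed by −0.53 points (adjusted p = 0.596).

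PAOX, which acts after SAT1, had a weak start that fell with NaPr. The start region, chr10:133379204-133380051, went from 81.3, 80.5 and 79.2 to 72.6, 66.5 and 71.7 (80.3 ± 1.03 and 70.3 ± 3.28, change −10.1, SE 2.47, limma adjusted p = 0.0474). The groups were apart, but the call was lost without any 1 untreated library or without treated library 3 (adjusted p = 0.0578 to 0.109). It was lost in 12 of 18 alternative settings in all (adjusted p up to 0.594). With NaBu the start ranked 65.4, 59.4 and 51.7 and then 53.2, 0 and 45.9 (change −25.9, SE 14.3, adjusted p = 0.192). A region 2443 bp downstream, chr10:133393937-133395135, which holds the start of MTG1, went from 94.9, 96.1 and 93.3 to 88.3, 89.8 and 92.2 with NaPr (change −4.65, SE 1.15, adjusted p = 0.048). This call was lost without any 1 untreated library or without treated library 1 or 2 (adjusted p = 0.0671 to 0.162). It was lost in 10 of 18 alternative settings in all (adjusted p up to 0.269). With NaBu the region changed by −1.46 points (adjusted p = 0.436). On tags the NaPr call was lost on the background scale (−0.49 log2, adjusted p = 0.142) and kept on the median scale (−0.75, 9.25e-06), and the NaBu change passed as lower on both (−0.39 and −0.38, 0.0190 and 0.0201).

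At SAT2 a weak upstream region rose with NaBu, and the start did not pass the test on ranks. The start, chr17:7626979-7628325, ranked 97.9, 97.5 and 97.2 and then 96.8, 96.4 and 95.5 with NaPr (change −1.29, SE 0.471, limma adjusted p = 0.153). With NaBu it ranked 91.7, 92.1 and 93.2 and then 90.0, 92.6 and 91.4 (change −1.01, adjusted p = 0.352). Its ranks were apart with NaPr and overlapped with NaBu, and neither passed the test on ranks. On tags the NaBu change passed as lower, at −0.31 and −0.30 log2 (adjusted p = 0.0215 and 0.0222 on the background and median scales). The upstream region, chr17:7632579-7632947, lies within SHBG, 4862 bp before the SAT2 start. With NaBu it went from 57.6, 56.7 and 55.2 to 72.3, 73.1 and 72.7 (56.5 ± 1.21 and 72.7 ± 0.410, change 16.2, SE 2.35, adjusted p = 0.0031), with tags higher by 0.77 log2 on both scales. With NaPr the change was 2.28 points (adjusted p = 0.879).

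Of the regulators, OAZ1 lost an intronic peak with NaPr. The region chr19:2270740-2270990, 1428 bp after the start, ranked 72.1, 75.2 and 69.6 in untreated libraries and had no listed peak in any NaPr-treated library (change −72.3, SE 10.4, limma adjusted p = 0.0214). The call was lost without untreated library 2 (adjusted p = 0.0517). With NaBu it ranked 49.3, 48.2 and 0 in untreated libraries and again had no peak in treated ones (change −32.5, SE 14.5, adjusted p = 0.136). The OAZ1 start, chr19:2269229-2269933, ranked 80.0, 82.8 and 81.9 and then 84.7, 77.6 and 79.9 with NaPr (change −0.87, adjusted p = 0.856). With NaBu it ranked 69.5, 64.7 and 62.1 and then 52.8, 41.9 and 0 (change −33.9, SE 13.6, adjusted p = 0.11). The 3 NaBu-treated libraries lay below the untreated ones, but their spread was wide. A region 2751 bp upstream within JSRP1, chr19:2266427-2266807, went from no peak to 46.7, 39.6 and 51.8 with NaBu (change 46.0, SE 6.26, adjusted p = 0.00244). With NaPr it changed by −19.5 points (adjusted p = 0.577).

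The AZIN1 start did not pass the test by rank with either compound. The start region, chr8:102863873-102864992, also holds the start of the noncoding gene MAILR. It ranked 89.8, 93.0 and 90.0 and then 87.8, 88.9 and 86.9 with NaPr (change −3.04, SE 1.10, limma adjusted p = 0.15), and 88.8, 84.7 and 86.0 and then 84.0, 78.1 and 82.3 with NaBu (change −4.99, SE 1.87, adjusted p = 0.0921). All treated ranks lay below the untreated ones in both experiments. On tags the NaBu change was −0.65 log2 on both scales and passed the test (adjusted p = 0.000435 and 0.000364). The adjoining intronic region, chr8:102862884-102863748, went from 95.2, 94.7 and 94.7 to 92.3, 93.0 and 90.9 with NaPr (change −2.81, SE 0.679, adjusted p = 0.0456). This call was lost without any 1 untreated library or without treated library 1 or 3 (adjusted p = 0.0581 to 0.113). On tags it was lost on the background scale (−0.29 log2, adjusted p = 0.439) and kept on the median scale (−0.54, 0.000100). With NaBu the rank changed by −2.33 points (adjusted p = 0.11) and the tags by −0.58 log2 on both scales, which passed (0.000114 and 9.08e-05).

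Upstream of AZIN1 the called regions were distal, and MAILR overlaps both. At chr8:102894247-102895020 NaBu took the ranks from no peak to 41.6, 47.0 and 40.2 (change 42.9, SE 5.96, limma adjusted p = 0.00263), close to the lowest rank a listed peak can have. At chr8:102903187-102904175 ranks went from 71.0, 73.9 and 68.5 to 58.1, 60.9 and 62.5 (change −10.7, SE 2.71, adjusted p = 0.0282). The latter call was lost without untreated library 1 or 2 or treated library 2 (adjusted p = 0.0508 to 0.0727). With NaPr these regions changed by 2.85 and −3.24 points (adjusted p = 0.854 and 0.335).

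Read as tags with NaPr, 7 of the 8 starts depended on the scale. On the median scale the starts of SAT2 (−0.47 log2), ODC1 (−0.34), AMD1 (−0.34), SRM (−0.32), SMOX (−0.37), PAOX (−0.72) and AZIN1 (−0.50) passed as lower, and none of these 7 passed on the genome background scale. The start of OAZ1 (−0.36) passed on neither. Of all regions, 19.9% passed as lower on the median scale and 1.1% on the genome background scale. The share among the starts of other genes is again not given. The NaBu starts of PAOX and OAZ1 lacked a peak in 1 treated library each and had no test on tags.

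A further 24 genes of the pathway were read from the same fits. They are the spermine synthase SMS, other antizymes and antizyme inhibitors, the arginine and methionine enzymes that feed the pathway, polyamine transporters, HDAC10, which deacetylates acetylated spermidine, and the hypusine genes around EIF5A. Of 116 regions tested with NaPr, 3 rose (2.59%) and 11 fell (9.48%), with a median change of −0.76 points. Of 121 tested with NaBu, 19 rose (15.7%) and 20 fell (16.5%), with a median of −1.20. Over all regions the shares were 5.16% and 4.1% with NaPr and 17.1% and 14.5% with NaBu.

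Some of the largest gains were at ATP13A3, a polyamine transporter. The region chr3:194488343-194489240, 2044 bp before its main start, had no peak in any untreated library and ranked 63.3, 69.2 and 46.9 with NaPr (change 59.8, SE 12.1, limma adjusted p = 0.0336) and 70.1, 67.8 and 73.7 with NaBu (change 70.5, SE 4.76, adjusted p = 0.000707). In SATL1, a gene related to SAT1, the intronic region chrX:85109296-85109537 went from no peak to 47.8, 64.0 and 50.9 with NaPr (change 54.2, SE 11.8, adjusted p = 0.0375) and 59.0, 54.6 and 53.6 with NaBu (adjusted p = 0.000982). Both thus shared the pattern of the region beyond SAT1, at lower ranks. The third gain with NaPr, again at ATP13A3, was 8.36 points (SE 2.06, adjusted p = 0.0477). The largest losses with NaPr were upstream of SLC3A2 (−55.2, SE 11.9, adjusted p = 0.0368), in an intron of AZIN2 (−53.9, SE 11.9, 0.038) and downstream of HDAC10, within TUBGCP6 (−52.3, SE 11.7, 0.039). The NaPr calls of this paragraph were lost without untreated library 2 (adjusted p = 0.0517), and the third gain also without untreated library 1 or 3 or treated library 1 or 2 (0.103 to 0.117).

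With NaBu the next largest gains were in an intron of SLC7A1, an arginine transporter, and downstream of MAT1A. The SLC7A1 region, chr13:29578551-29579530, went from no peak to 71.5, 66.7 and 64.5 (change 67.6, SE 4.95, limma adjusted p = 0.000722), and the MAT1A region changed by 60.2 points (SE 7.10, adjusted p = 0.00161). The largest loss was at chr19:3482930-3483665, 7536 bp downstream of DOHH and over the start of SMIM44, from 70.4, 69.0 and 73.2 to no peak (change −70.9, SE 4.65, adjusted p = 0.000707). Next were 2 neighbouring regions in an intron of MAT2B (−63.5, SE 5.57, adjusted p = 0.00084 and −61.1, SE 5.60, 0.000904), the latter lost when merging needed 100 bp of overlap (0.128).

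The limit of 10 kb around a gene cut through a sparse set of regions. The members nearest to the limit were a PAOX region 9837 bp from the gene, with mean ranks of 36.5 in untreated NaPr libraries and 0 in the other groups, and the ODC1 region at 9642 bp described above. Just outside were a SMOX region at 10286 bp, with a mean rank of 42.7 in NaPr-treated libraries and 0 elsewhere, and a SAT2 region at 10441 bp, with means of 97.2 and 96.6 in the NaPr and 90.8 and 90.3 in the NaBu experiment.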

How the data were processed

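The 20 deposited files are lists of peaks, of which the 12 from SW480 were used and the 8 from CT26 were not analysed here. Per the labels and the submitters' processing notes, the authors trimmed reads with cutadapt 1.9.1, aligned them with Bowtie2 2.3.1 to hg38 and called peaks in each library with MACS2 2.1.0. For each summit the deposited lists give the ratio of its tags to local background (fold enrichment), a −log10 p-value, a −log10 q-value and its offset; no read counts were analysed here. The authors tested reads with DiffBind, so the regions called here are not on the same scale.

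Peaks that overlapped by at least 1 bp in any of the 12 lists were merged, ranked by −log10 p within each library and compared with limma 3.58.1 (lmFit, eBayes with trend, two-sided) in R 4.3.3, each experiment alone and with 3 libraries in each group. Fold and −log10 p were solved for whole tags and background, with the pseudocount of 1 that MACS2 adds. A solution was found for 100% of summits. Intervals between replicate libraries were identical in at most 0.796%, so none was counted as deposited more than once. On simulated data the fit recovered 143 of 200 changed regions with NaPr (71.5%) and 154 of 200 with NaBu (77%). GENCODE 44 gave the genes. The members, lists and motifs were chosen with earlier results of these data known. Named regions were each start, each called region, every SAT1 region, the 3 largest calls of each kind in the wider list and the 5 regions most like the one beyond SAT1. Alternatives were other scales, filters, merging, windows and fits, and leaving out each library. The sequence of the region beyond SAT1 is not reported here.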

Additional observations from a re-analysis of the deposited data

How the results depend on the processing

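Counts are given as higher and lower at the 8 genes without SAT1 (1 and 5 with NaPr, 7 and 10 with NaBu) and at the 24 further genes (3 and 11, 19 and 20), whose alternatives were added after the data were seen. The share of all regions called follows in parentheses, and for some settings only part of these counts is given. The labels do not say whether same-numbered libraries were paired. Deviations from the group means correlated between same-numbered libraries at 0.0153, 0.0134 and 0.0483 with NaPr and at 0.0149, 0.00488 and 0.00872 with NaBu. Between differently numbered libraries the values were −0.0377 to 0.0202 with NaPr and −0.0157 to 0.00753 with NaBu. Such small values cannot decide whether the libraries were paired. With the replicate number as a block, NaPr gave 0 higher and 0 lower of 49 at the 8 genes (12 of 49 at an unadjusted p under 0.05 by limma), 0 and 0 at the 24, and 0 over all regions (25786 unadjusted), and NaBu gave 7 and 7 of 52 (15.0% and 12.6%). Without the variance trend, NaPr gave 0 and 2 of 49 (3.60% and 2.27%) and NaBu 5 and 6 of 52 (13.2% and 10.7%). The 24 genes gave 4 lower of 116 with NaPr. One fit over all 12 libraries gave 9 and 17 of 52 with NaBu (21% and 17.9%). On fold enrichment, NaPr gave 1 and 1 of 49 (3.43% and 2.40%) and NaBu 5 and 6 of 52 (12% and 11.9%). At the 24 genes it gave 1 and 6 of 116 with NaPr and 11 lower of 121 with NaBu. On tags over genome background, NaPr gave 1 and 1 of 28 (13.5% and 1.1%) and NaBu 6 and 18 of 28 (24% and 28.8%). The 24 genes gave 7 and 1 of 74 with NaPr and 10 and 31 of 79 with NaBu. On tags over the median, NaPr gave 2 and 14 of 28 (12.2% and 19.9%) and NaBu 6 and 18 of 28 (24.4% and 28.6%). At the 24 genes it gave 6 and 23 of 74 with NaPr and 10 and 31 of 79 with NaBu. Merging within an experiment gave 8 and 17 of 57 with NaBu (19.6% and 17.3%). The 24 genes gave 7 lower of 123 with NaPr. Ranking regions with a peak in at least 1 library gave 1 and 2 of 65 with NaPr (0.84% and 0.776%). At the 24 genes this gave 0 and 3 of 174. With the 50000 strongest intervals, NaPr gave 2 and 3 of 25 (7.53% and 7.64%) and NaBu 5 and 8 of 21 (20.1% and 18.6%). The 24 genes gave 1 higher of 59 with NaPr and 7 and 11 of 62 with NaBu. A window of 50 kb gave 2 and 8 of 134 with NaPr (5.16% and 4.1%). With NaBu it gave 20 and 21 of 124 (17.1% and 14.5%). At the 24 genes it gave 12 and 18 of 294 with NaPr, and 43 and 44 of 276 with NaBu. Leaving out each library gave 0 to 3 higher and 0 to 6 lower of 43 to 48 with NaPr. All regions then gave 0 to 7.27% and 0 to 4.88%. With NaBu the 8 genes gave 5 to 9 and 6 to 11 of 45 to 48 (16% to 17.5% and 11.6% to 15%). At the 24 genes the counts were 0 to 5 and 0 to 10 with NaPr, and 12 to 18 and 13 to 22 with NaBu. No called change turned direction, but 19 values of 11 changes that were not called did, among them the AZIN1 region called lower with NaBu, with NaPr, at 0.02 log2 on tags over genome background. Among the NaBu calls at the 8 genes, those upstream of SAT2, distal to ODC1, in the SMOX intron that also fell with NaPr and just upstream of SRM held in all 18 alternatives. The gains in SRM, upstream of OAZ1 and distal to AZIN1 held in all 15 that could be run. The gain downstream of ODC1 was lost when merging needed 100 bp of overlap (limma adjusted p = 0.147), as was 1 loss in MAT2B (0.128), and the loss in the SRM exon in the fit over 12 libraries (0.115). The cause was not tested where none is named. Lists without read counts limit what can be seen below each library's weakest listed peak.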
